A study of Cavia porcellus with 34 samples.

Results

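Collagen, laminin and integrin genes were followed in the paraventricular nucleus (PVN) of the hypothalamus of guinea pigs (Dunkin-Hartley) whose mother, paternal grandmother or paternal great-grandmother had been treated with a synthetic glucocorticoid (sGC) in pregnancy. The genes were chosen by symbol alone: collagens as COL, a number, A and a number, laminins as LAMA, LAMB or LAMC and a number, and integrins as ITGA with a number or letter or ITGB with a number. This gave 69 of the 12592 genes in the 3 tables, 37 collagens, 10 laminins and 22 integrins. Of them 54 had a row in F1, 56 in F2 and 67 in F3, and 52 were in all 3.

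Pregnant F0 animals received repeated courses of betamethasone (labelled Beta, here sGC) or saline (labelled Control, here Veh). The tissue was a micropunch of the PVN region from juvenile females on postnatal day 40, and such a punch can hold neighbouring hypothalamus. F1 animals were exposed in utero (5 Veh, 5 sGC). F2 (5 Veh, 5 sGC) and F3 animals (6 Veh, 6 sGC) descended through F1 and F2 males mated with untreated females, so the F3 animals were never exposed themselves. In F3, all 6 Veh and 4 sGC animals came from a first sequencing batch and 2 sGC animals from a second one.

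Collagens are the fibre- and sheet-forming proteins of the extracellular matrix. Laminins are heterotrimers of an alpha, a beta and a gamma chain that, with the network-forming collagen IV, build the basement membrane around blood vessels and beneath the pial surface. Integrins are alpha-beta receptor pairs that bind cells to these proteins. In brain tissue, fibrillar collagens come mostly from vessel-associated fibroblasts and the meninges, basement membrane genes from endothelial and mural cells, and integrin alphaV-beta8 is prominent on astrocytes.

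The values are normalized counts, corrected by the authors for unwanted variation and rounded. Their sum per animal was 15.57 to 21.94 M (M, mega, counts) in F1, 15.65 to 19.44 M in F2 and 18.69 to 18.98 M in F3. Each generation has its own table, so sGC was set against Veh within a table only. Genes whose mean reached 10 were tested by limma on log2(value + 1), and p-values were adjusted over the whole table by the Benjamini-Hochberg method, with a threshold of 0.05. A log2 fold change is sGC minus Veh on that scale, where the added 1 shrinks the change of genes with low values. Sample numbers stand for independent litters in the study's methods, while the labels of these libraries name no litter.

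Libraries stood apart in F1 and F2. Summed over 7 marker genes of the PVN, F1 sGC replicates SGM4, SGM8 and SGM20 had 22034, 32130 and 46638 normalized counts. All other F1 animals had 92851 to 211770, so these 3 sGC animals lay below every Veh animal. F1 sGC replicate SGM4 also had the highest sum of 7 mural cell markers (smooth muscle and pericyte), 16073 against 4311 to 6325 in Veh, and it was the highest F1 animal for 24 of the 54 genes. In F2, Veh replicate SGM22 had the highest mural sum (9463) and was the highest animal for 28 of the 56 genes. F3 animals had mural sums of 7515 to 9191, while their PVN sums ran from 15389 to 52610 in Veh and from 21163 to 36268 in sGC. All 7 PVN markers had a row in each table, and none was at 0 in any animal. In bulk tissue, fewer cells of a type and less RNA per cell cannot be told apart.

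In F1, the matrix and receptor genes were mostly higher in sGC. Of 53 tested, 47 (88.7%) had a log2 fold change above 0, against 63.8% of all 11874 genes. With size factors, which set each animal's median ratio to the other animals equal, 44 of 53 were higher, against 6026 of all 11874 genes. At an unadjusted p-value under 0.05, 22 were higher and 0 lower in sGC. Over all genes, 12.1% were higher at that level and 1.46% lower. The unadjusted share was 13.6% in all. No gene of the 3 families passed the adjusted threshold (0 of 53, limma), which 0.657% of all genes did. The groups did not overlap in 4 genes (ITGA7, ITGA8, LAMA5 and, named after its values were seen, the leukocyte chain ITGAX), all with sGC above Veh, against 2.04% of all genes, 1.79% with sGC above and 0.253% with sGC below. The median log2 fold change of the 53 genes was 0.34, or 0.27 above that of all genes.

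The F1 counts were also taken without the 3 sGC animals with the lowest PVN marker sums. These were also the highest F1 animals in fibrillar collagens (0.74, 1.35 and 1.41 relative to Veh and all genes). Lower collagen values without them were therefore built in, and a smaller group also lowers the number of small p-values. Without these 3 animals, a choice made after seeing the data that leaves 2 sGC animals, 37 of 52 genes (71.2%) were higher, against 70.1% of all genes. At an unadjusted p-value under 0.05, 6 of 52 (11.5%) were then higher, against 8.01% of all genes. The collagen median then lay at -0.03 relative to all genes, in place of 0.39, the integrin median at 0.05 in place of 0.24, and the laminin median at 0.11 in place of 0.26. The part of the punched tissue's makeup in these differences was not tested.

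**Figure D1:**
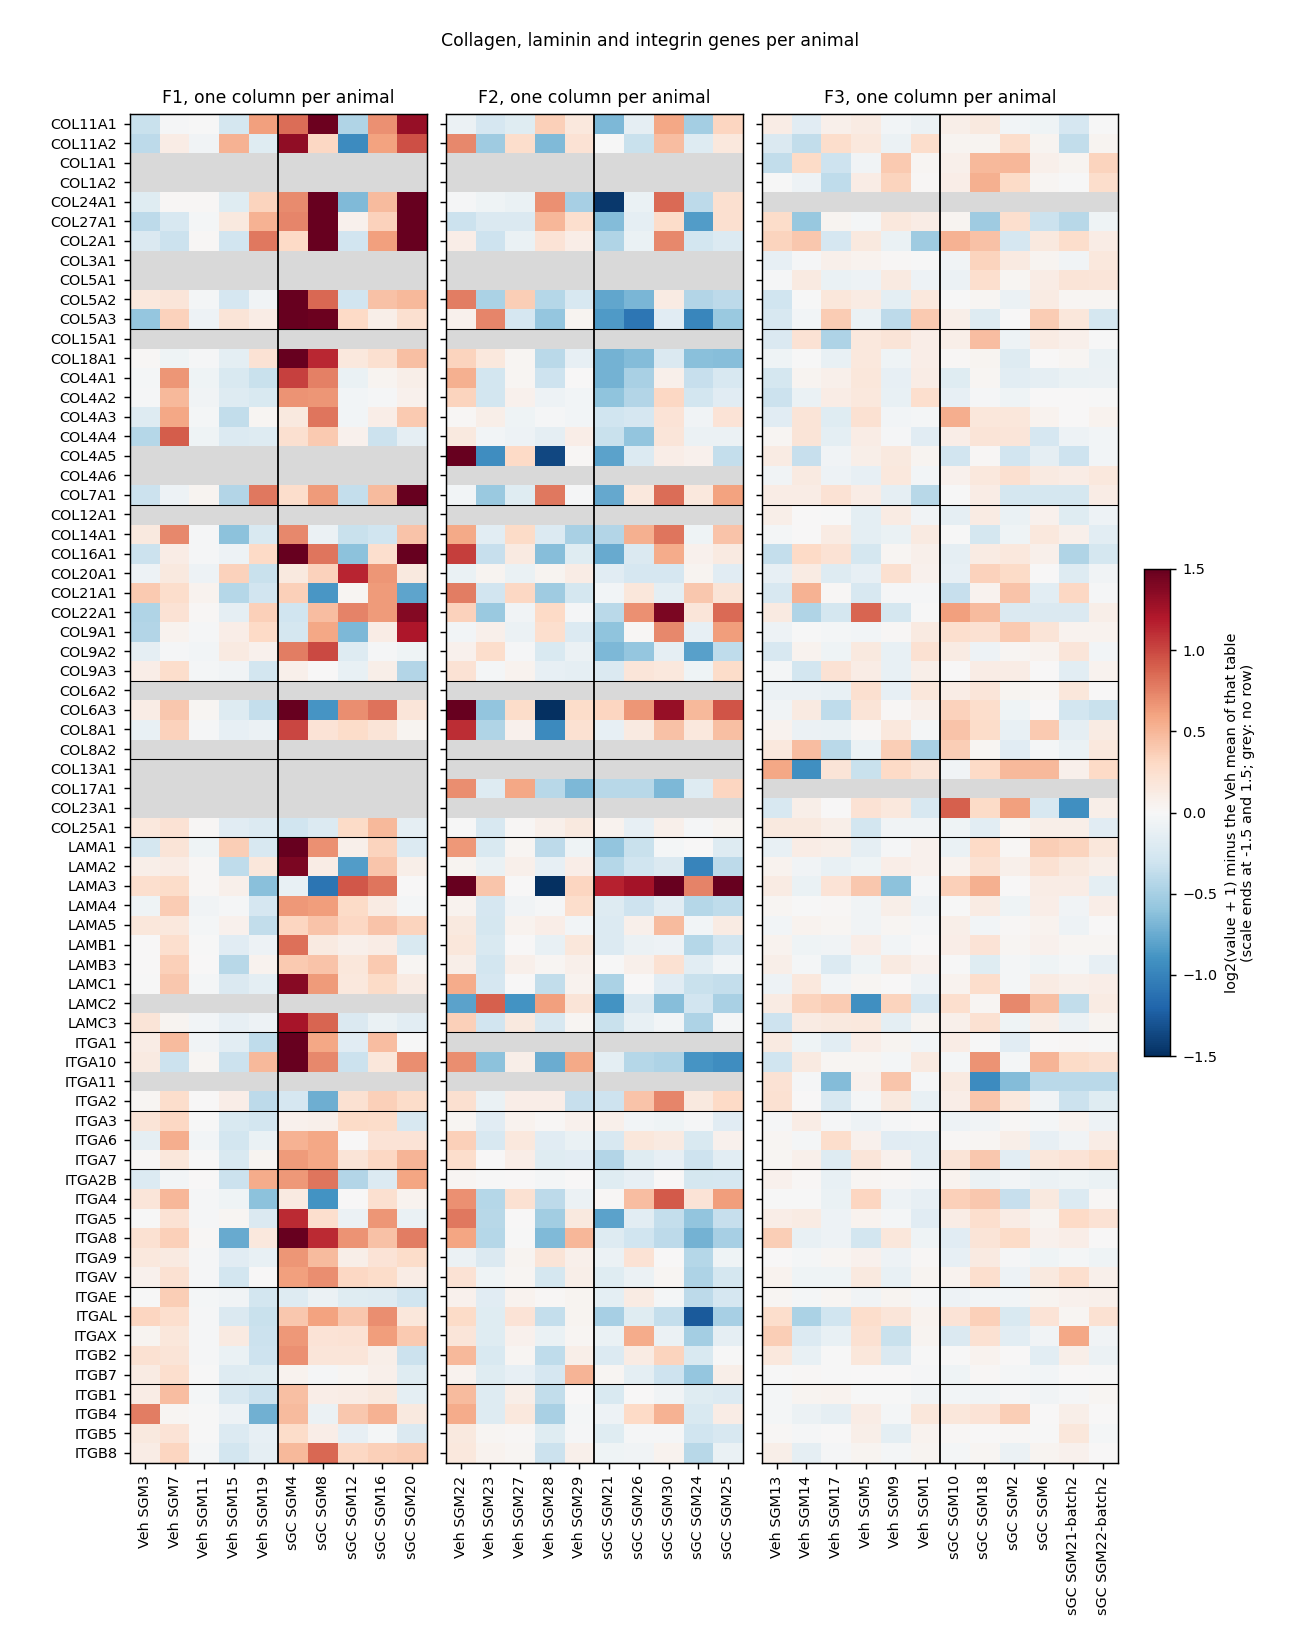
Heat map of log2(value + 1) minus the Veh mean of the same table, 1 row per gene and 1 column per animal, with Veh left and sGC right of the vertical line in each generation and horizontal lines between gene classes. Red is higher and blue lower than the Veh mean, and grey marks genes with no row in that table. In F1 the red cells gather in sGC replicates SGM4, SGM8 and SGM20, and F3 is pale throughout.

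Fibrillar collagens, the rope-like collagens of connective tissue and cartilage, had the largest median F1 difference of any collagen, laminin or integrin class. All 7 tested were higher in sGC, 6 of them at an unadjusted p-value under 0.05, against 63.8% and 12.1% of all genes. The class median lay 0.71 above all genes, with log2 fold changes from 0.46 to 0.98. Fibrillar collagens also had the widest spread among animals of one group, with a median SD of 0.66 on the log2 scale against 0.21 over all genes.

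COL27A1, a fibrillar collagen of cartilage, had 160, 178, 206, 234 and 303 normalized counts in the F1 Veh animals. In sGC it had 352 in SGM4, 763 in SGM8, 221 in SGM12, 268 in SGM16 and 637 in SGM20. The 3 animals with low PVN marker sums were thus above every Veh animal and the other 2 were within the Veh range. The Veh mean was 216 ± 56.1 (SD, n = 5) and the sGC mean 448 ± 239 (SD, n = 5). The log2 fold change was 0.92 (standard error, SE, 0.26; limma, adjusted p = 0.0996). It passed without SGM12 (1.13; limma, adjusted p = 0.00955) or without SGM16 (1.06; limma, adjusted p = 0.0297), the 2 sGC animals within the Veh range. Without SGM8, the highest animal, it was 0.69.

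COL11A1, which co-assembles with collagen II and was named here after its values were seen, showed the same animals on top. It had 423 to 817 in Veh, 953 in SGM4, 1485 in SGM8 and 1318 in SGM20, but 390 in SGM12 and 856 in SGM16. Its log2 fold change was 0.77 (SE 0.25; limma, adjusted p = 0.145). It passed without sGC replicate SGM12, the lowest animal (1.08; limma, adjusted p = 0.00295). Without SGM8, the highest animal, it was 0.59.

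COL5A2 and COL5A3, chains of collagen V that regulate the width of collagen I fibres, peaked in a different animal. COL5A2 had 124 to 168 in Veh and 724 in SGM4, and 121 to 269 in the other sGC animals. Its log2 fold change of 0.76 (SE 0.29; limma, adjusted p = 0.236) was 0.38 without SGM4 and 1.02 without SGM12 (limma, adjusted p = 0.0316). COL5A3 had 59 to 113 in Veh, 310 in SGM4 and 247 in SGM8, and 94 to 109 in the other 3 sGC animals. COL1A1, COL1A2, COL3A1 and COL5A1, the other main fibrillar chains of fibroblasts, had no row in the F1 and F2 tables analysed here.

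Basement membrane collagens were higher in F1 sGC in 6 of 6 cases, 1 of them at an unadjusted p-value under 0.05. The shares over all genes were 63.8% and 12.1%. With size factors 5 were higher and 1 lower. The 1 gene under that p-value was COL18A1, the collagen of vascular and pial basement membranes whose C-terminal fragment is endostatin. It had 600, 636, 660, 672 and 776 normalized counts in Veh, and 2639 in SGM4, 1465 in SGM8, 912 in SGM20, 788 in SGM16 and 746 in SGM12. Every sGC animal lay above the Veh mean of 669 ± 65.9 (SD, n = 5), 1 of them inside the Veh range. The log2 fold change was 0.80 (SE 0.23; limma, adjusted p = 0.11). It was 0.50 without SGM4, 0.95 without SGM12 (limma, adjusted p = 0.0183) and 0.93 without SGM16 (limma, adjusted p = 0.0323).

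COL4A1 and COL4A2, the chains of the main collagen IV trimer, are head-to-head neighbours in the genome and appear as adjacent entries in the RefSeq gene table of mCavPor4.1. Their F1 values ran together. COL4A1 had 623 to 1241 in Veh and 734 to 1598 in sGC, a log2 fold change of 0.36 (SE 0.20; limma, adjusted p = 0.445). COL4A2 had 707 to 1165 in Veh and 808 to 1329 in sGC, a log2 fold change of 0.27 (SE 0.16; limma, adjusted p = 0.508). In both genes Veh replicate SGM7 and sGC replicates SGM4 and SGM8 were the 3 highest animals. Without SGM4, SGM8 and SGM20 both stood at -0.03.

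Among the remaining collagens, COL6A3, a chain of the beaded filaments of collagen VI, had 351 to 595 in F1 Veh. In sGC it had 1849 in SGM4 but 243, the lowest value of all 10 animals, in SGM8. The log2 fold change was 0.57 (SE 0.31; limma, adjusted p = 0.451), 0.20 without SGM4 and 0.75 without SGM4, SGM8 and SGM20 (limma, adjusted p = 0.0119). COL6A1 had no row in the 3 tables analysed here. COL9A1 and COL9A2, collagens that attach to the surface of fibrils, had log2 fold changes of 0.19 and 0.29 (limma, adjusted p = 0.798 and 0.543).

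All 9 laminin chains tested were higher in F1 sGC, 4 of them at an unadjusted p-value under 0.05, against 63.8% and 12.1% of all genes. LAMA5, the alpha chain of mature vascular laminin, was the steadiest of them. It had 353, 445, 478, 508 and 513 normalized counts in Veh and 564, 571, 573, 611 and 614 in sGC. The groups did not overlap. The means were 459 ± 65.4 (SD, n = 5) and 587 ± 23.9 (SD, n = 5), a log2 fold change of 0.36 (SE 0.13; limma, adjusted p = 0.189). After rescaling each animal by its median-of-ratios size factor it was 0.30 and passed (limma, adjusted p = 0.0303).

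LAMC1, the gamma chain shared by most laminin trimers, had 599 to 916 in Veh and 1789 in SGM4, 1077 in SGM8, and 754 to 848 in the other sGC animals, with a log2 fold change of 0.51 (SE 0.19; limma, adjusted p = 0.205). LAMA4, the other endothelial alpha chain, had 403 to 626 in Veh and 470 to 755 in sGC, with a log2 fold change of 0.33 (SE 0.15; limma, adjusted p = 0.338). LAMB1 had one of 0.18 (SE 0.15; limma, adjusted p = 0.666). LAMA2, the alpha chain of laminin 211 in astrocyte and muscle basement membranes, had 1821 in SGM4 and 383 in SGM12, against 525 to 769 in Veh. Its log2 fold change of 0.24 turned to -0.06 without SGM4. LAMB2 had no row in the 3 tables analysed here.

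Integrin genes held most of the F1 results that depended on scaling. Of 21 tested, 17 were higher in sGC and 8 were higher at an unadjusted p-value under 0.05, against 63.8% and 12.1% of all genes. None passed the adjusted threshold on the deposited scale. With median-of-ratios size factors, ITGA7, ITGA8, ITGAV and ITGB8 passed as higher and ITGAE as lower, and with LAMA5 these made 6 of the 53 genes. That scaling called 17.3% of all genes, 8.47% higher and 8.86% lower. The 5 higher and 1 lower genes are to be read against that split.

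ITGA8, an alpha chain that pairs with ITGB1 and binds RGD ligands, had the smallest p-value of the families in F1. It had 50, 86, 95, 100 and 109 normalized counts in Veh and 116, 136, 146, 186 and 259 in sGC, and the groups did not overlap. The means were 88 ± 22.8 (SD, n = 5) and 169 ± 56.6 (SD, n = 5), a log2 fold change of 0.92 (SE 0.23; limma, adjusted p = 0.0569). Leaving out each animal in turn gave 0.73 to 1.04. It passed with size factors (0.86; limma, adjusted p = 0.0258), when only genes reaching a mean of 50 were fitted (0.92; limma, adjusted p = 0.0485), and without Veh replicate SGM7 or sGC replicate SGM12 or SGM16 (1.01, 0.98 and 1.04).

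ITGAV and ITGB8 form alphaV-beta8, the receptor that activates latent TGF-beta in brain. ITGAV had 2590 to 3670 in Veh and 3395, 3813, 3897, 4823 and 5111 in sGC. The highest Veh animal, SGM7, lay above 1 sGC animal. Its log2 fold change was 0.40 (SE 0.13; limma, adjusted p = 0.142), and 0.34 with size factors (limma, adjusted p = 0.026). ITGB8 had 2456 to 3708 in Veh and 3680, 3791, 3866, 4155 and 5397 in sGC. Its groups overlapped by 1 Veh animal, SGM7, which had the largest sum of all F1 animals. The means were 2996 ± 482 (SD, n = 5) and 4178 ± 704 (SD, n = 5), a log2 fold change of 0.48 (SE 0.13; limma, adjusted p = 0.0908). With size factors it was 0.42 (limma, adjusted p = 0.0101), and without SGM7 it was 0.56 (limma, adjusted p = 0.0286). Without sGC replicate SGM8, the highest animal, it was 0.38.

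ITGA7, a laminin receptor of muscle and mural cells, had 358 to 474 in Veh and 481 to 654 in sGC, with no overlap. Its log2 fold change was 0.45 (SE 0.13; limma, adjusted p = 0.11), and 0.39 with size factors (limma, adjusted p = 0.0334). ITGA6, the laminin receptor alpha chain of endothelial cells, had one of 0.30 (SE 0.15; limma, adjusted p = 0.37). ITGA1, a collagen receptor of vessel wall cells, had 146 to 265 in Veh and 765 in SGM4, with 169 to 286 in the other sGC animals, and a log2 fold change of 0.57 that was 0.21 without SGM4.

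The other beta chains had smaller F1 differences than ITGB8. ITGB1, the partner of most alpha chains, had 1820 to 3142 in Veh and 2058 to 3106 in sGC, a log2 fold change of 0.13 (SE 0.14). ITGB5, an alternative partner of ITGAV, had means of 1832 ± 222 (SD, n = 5) and 1841 ± 249 (SD, n = 5), and ITGB4, the beta chain of hemidesmosomes, a log2 fold change of 0.29 (SE 0.19; limma, adjusted p = 0.546). ITGB2, the beta chain of leukocytes and microglia, had a log2 fold change of 0.16 (SE 0.18; limma, adjusted p = 0.767), and ITGA5, the fibronectin receptor alpha chain, one of 0.37 (SE 0.19; limma, adjusted p = 0.42). ITGAM had no row in the 3 tables analysed here. ITGAE, an alpha chain of mucosal lymphocytes that binds E-cadherin, had the lowest log2 fold change of the 4 integrins that were lower. It had 380 to 592 in Veh and 373 to 433 in sGC, a log2 fold change of -0.19 (SE 0.13; limma, adjusted p = 0.588), and -0.25 with size factors (limma, adjusted p = 0.0161).

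**Figure D2:**
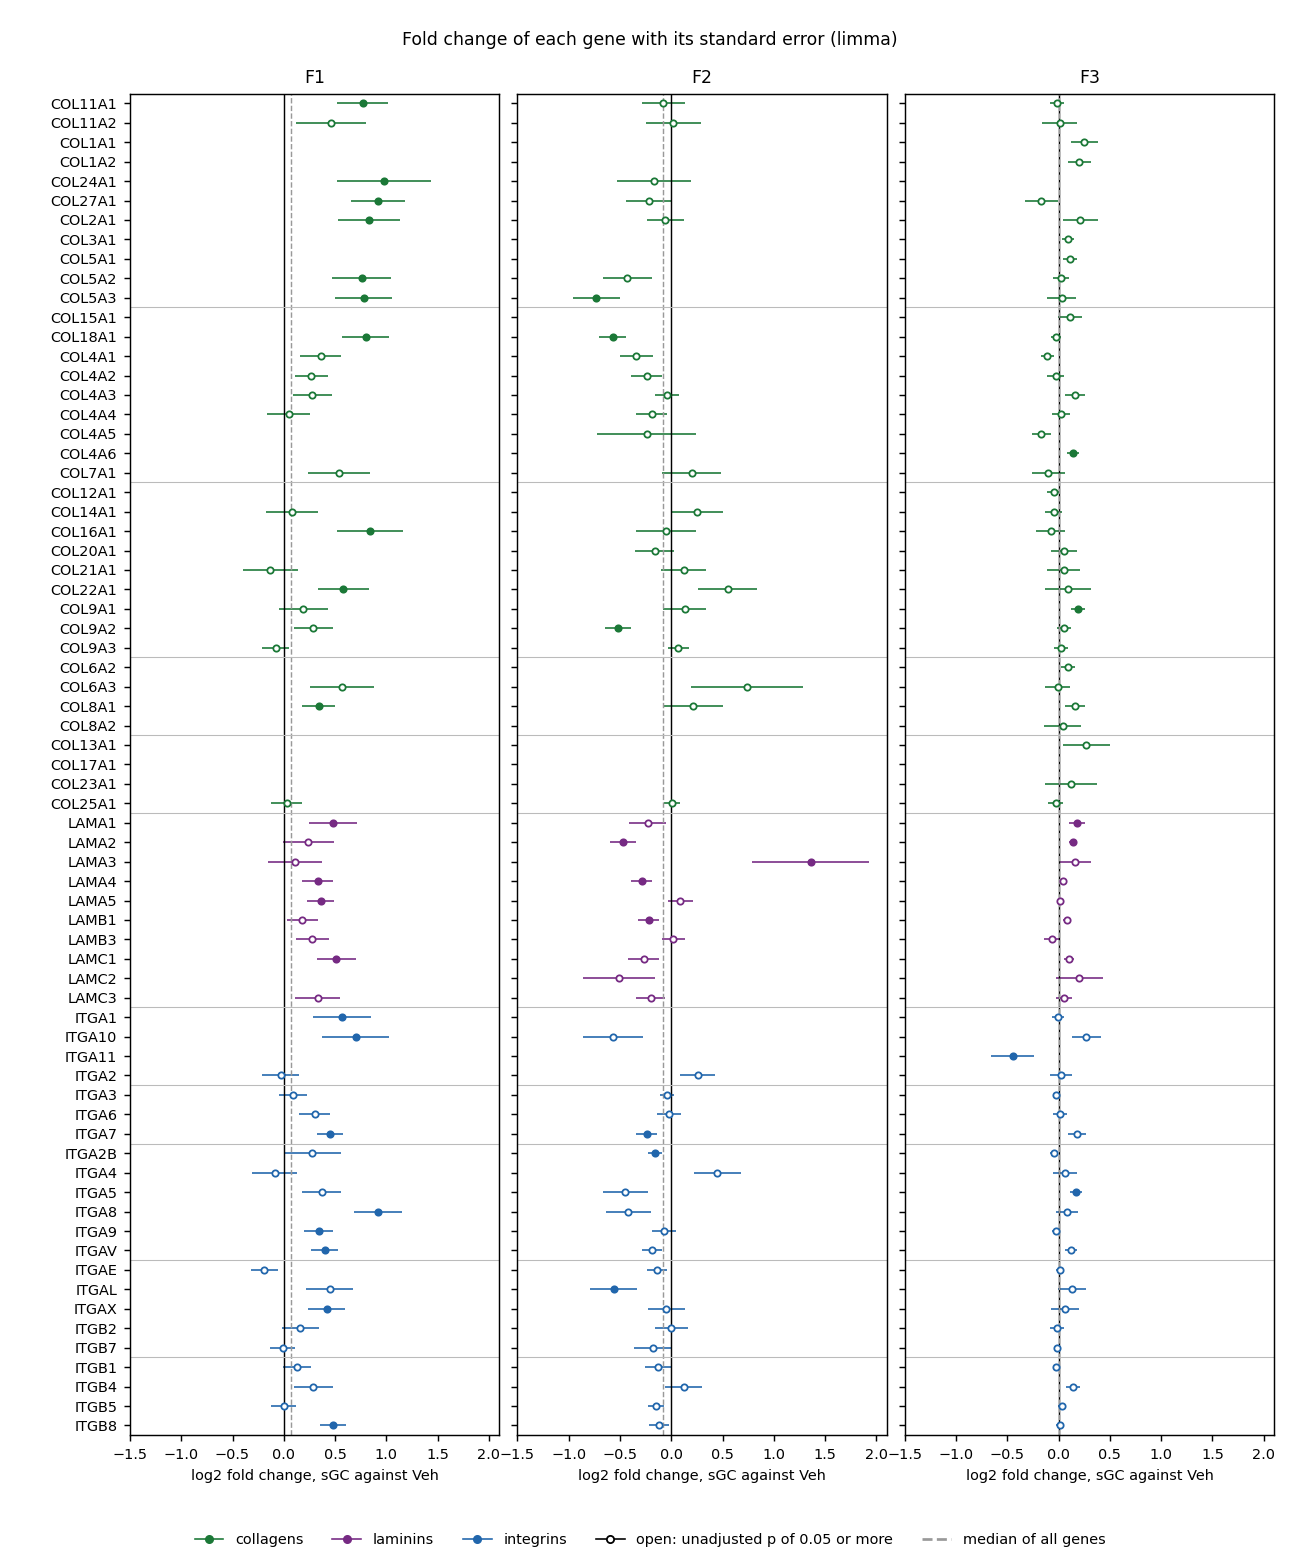
Log2 fold change of each gene, sGC against Veh, with its standard error from limma as a horizontal bar, in F1, F2 and F3, with genes in the order of the heat map. Filled points had an unadjusted limma p-value below 0.05, and the dashed line is the median of all genes (0.07 in F1, -0.08 in F2). F1 points lie mostly right of the line, F2 points on both sides, and F3 points near 0 with short bars.

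Genes that process, accompany or sense the matrix were also mostly higher in F1 sGC. The collagen processing list (17 tested), the basement membrane list (8), the receptor and adaptor list (13) and the matrix degradation list (10) had 40 of 48 genes higher in sGC and 10 higher at an unadjusted p-value under 0.05. The shares over all genes were 63.8% and 12.1%. The medians of the 4 lists lay 0.12, 0.34, 0.15 and 0.12 above that of all genes. PARVB, an adaptor that links integrins to actin, was the 1 gene of the 48 under the adjusted threshold. It fell, with 771 ± 106 (SD, n = 5) normalized counts in sGC against 1371 ± 533 (SD, n = 5) in Veh. The log2 fold change was -0.77 (SE 0.18; limma, adjusted p = 0.0453), and the groups overlapped at their edges. NTN4, a laminin-related protein of vascular basement membranes, had 245 to 391 in Veh and 398 to 643 in sGC without overlap (log2 fold change 0.57; limma, adjusted p = 0.0938). All sGC animals lay above all Veh animals in 1.79% of all genes.

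With size factors, 7 of the 48 passed as higher and PARVB as lower, at a scaling where 17.3% of all genes passed. They were HSPG2 (perlecan), NTN4 and PXDN (peroxidasin, which crosslinks collagen IV), LOXL3 and LOXL4 (lysyl oxidases), and TLN1 and PTK2 (talin and focal adhesion kinase). HSPG2 had log2 fold changes of 0.64 on the deposited scale and 0.58 with size factors (limma, adjusted p = 0.0374). LOXL4 had 63 to 109 in Veh and 104 to 148 in sGC, with 0.60 after scaling (limma, adjusted p = 0.00614).

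Several lists of cell type markers were also mostly higher in F1 sGC. Of all genes, 63.8% were higher and 12.1% were higher at an unadjusted p-value under 0.05. Of 14 endothelial markers 14 were higher in sGC, 6 at an unadjusted p-value under 0.05, with a median log2 fold change of 0.38. Of 7 mural markers 7 were higher (4 at that level, median 0.45). All 10 oligodendrocyte markers were higher (1 at that level), and their sum was 112729 in SGM8 and 76607 in SGM4 against at most 52875 in Veh. Of 8 microglial and leukocyte markers 7 were higher (3 at that level), with the highest sum, 7326, in SGM4. All 7 PVN markers were lower, 5 at that level, with a median of -0.94. Of 15 fibroblast and leptomeningeal markers only LUM and PRRX1 had rows in F1, and their sum ranged from 1015 to 1610 in Veh and from 979 to 1658 in sGC. In the other lists, 5 of 5 oligodendrocyte precursor, 7 of 8 astrocyte, 5 of 7 ependymal, 4 of 6 neuron and 3 of 5 choroid plexus markers were higher. SGM20, highest in fibrillar collagens (1.41), had mural (5715), endothelial (8605) and microglial and leukocyte (3883) sums within the Veh ranges. Its choroid plexus sum (1204) lay above the Veh range of 534 to 906, and its oligodendrocyte sum (53395) just above. Its PVN sum (46638), oligodendrocyte precursor sum (3848) and neuron sum (54221) lay below the Veh ranges. The part of cell content in the results was not tested.

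**Figure D3:**
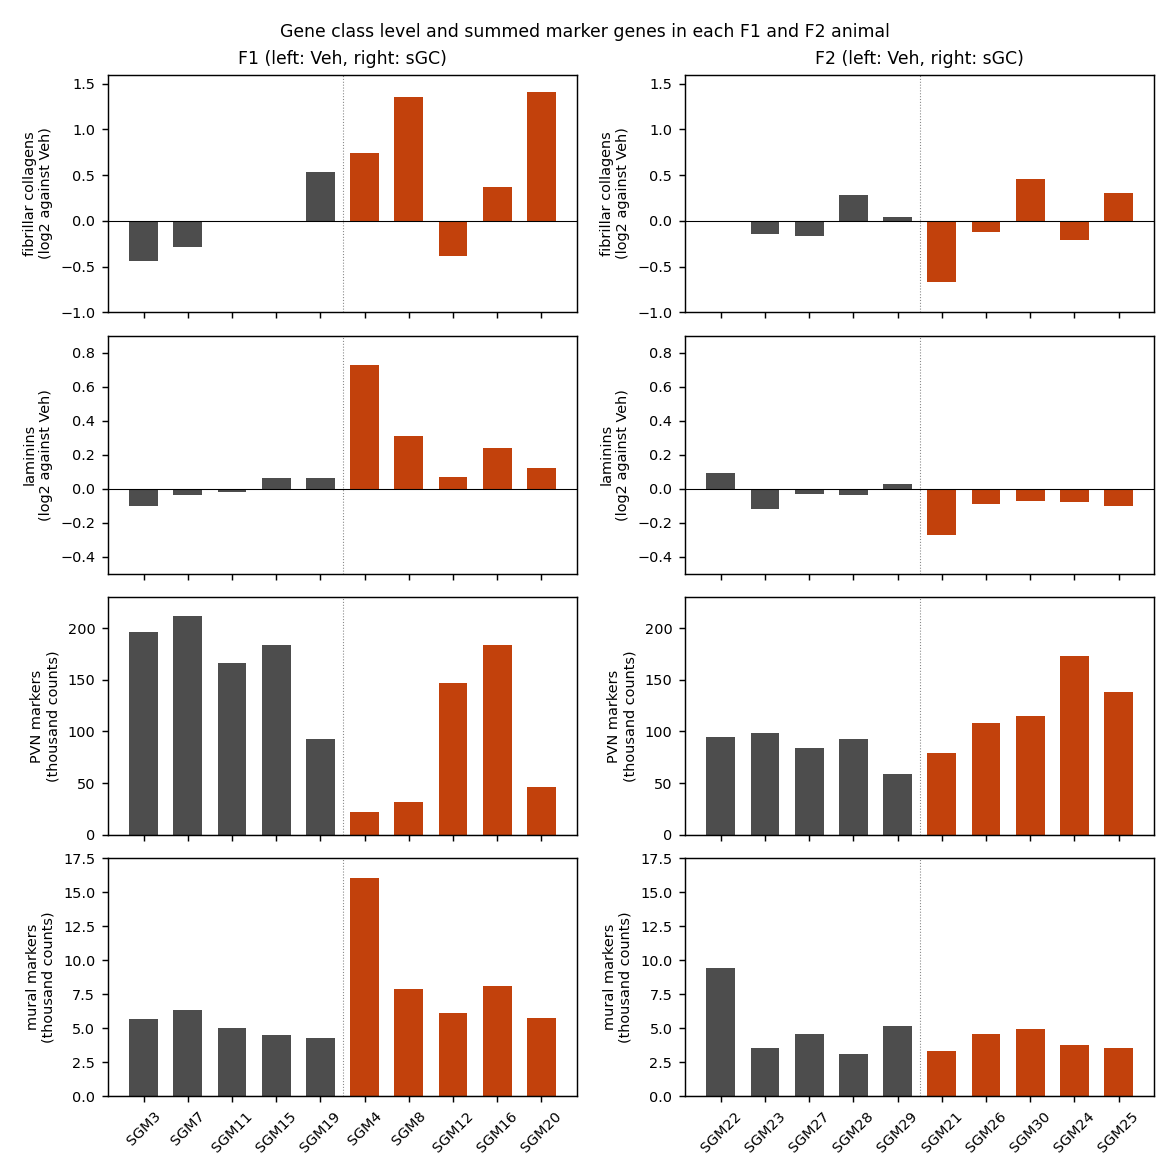
Bars for each F1 (left) and F2 (right) animal, Veh in grey and sGC in orange. The upper panels show the median over fibrillar collagens or laminins of log2(value + 1) minus the Veh mean, minus the same median over all genes. The lower panels show summed normalized counts, in units of 1e3, of the PVN and mural marker lists. F1 sGC replicates SGM4, SGM8 and SGM20 are high in fibrillar collagens (0.74, 1.35 and 1.41) and low in PVN markers, and SGM12 is at -0.38.

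In F2 most of the genes were lower in sGC, as were most of all genes. Of 55 genes tested, 38 were lower and 17 higher in sGC, and 30.9% higher compares with 24.5% of all 11965 genes. With size factors 31 were lower and 24 higher, against 6078 and 5887 of all genes. At an unadjusted p-value under 0.05, 9 were lower and 1 higher, against 9.17% and 2.49% of all genes (11.7% in all). No gene passed the adjusted threshold with limma on the deposited scale or with size factors (0 of 55 and 0 of all genes in both). The medians relative to all genes were 0.01 for 25 collagens, -0.15 for 10 laminins and -0.06 for 20 integrins.

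COL18A1 had the smallest p-value of the families in F2, in the opposite direction to F1. It had 1053, 1281, 1428, 1557 and 1757 normalized counts in Veh and 851, 890, 896, 901 and 1200 in sGC. Every sGC animal lay below the Veh mean, and 1 sGC animal, SGM30, was inside the Veh range. The means were 1415 ± 268 (SD, n = 5) and 948 ± 142 (SD, n = 5), a log2 fold change of -0.57 (SE 0.13; limma, adjusted p = 0.0993). Without Veh replicate SGM28, the lowest Veh animal for this gene, it was -0.67 and passed (limma, adjusted p = 0.0179). Without Veh replicate SGM22, the highest one, it was -0.49.

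LAMA2 had 1054, 1068, 1172, 1205 and 1229 in F2 Veh and 573, 852, 872, 930 and 982 in sGC. All sGC animals were below all Veh animals, which held for 2.31% of all genes. The groups did not overlap in 2.4% of all F2 genes, 0.0919% with sGC above Veh, and LAMA2 was the 1 such gene of the families. The log2 fold change was -0.47 (SE 0.13; limma, adjusted p = 0.178). LAMA4 had 503 to 718 in Veh and 445 to 536 in sGC (log2 fold change -0.29, SE 0.10; limma, adjusted p = 0.282). LAMB1 had a log2 fold change of -0.22 (SE 0.10) and LAMC1 one of -0.27 (SE 0.15), with adjusted limma p-values of 0.407 and 0.517. LAMA5 stood at 0.09 (SE 0.12; limma, adjusted p = 0.772).

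LAMA3, an alpha chain of epithelial laminin, had the largest F2 difference and was named after its values were seen. It had 42, 247, 308, 329 and 857 in Veh and 413, 551, 586, 788 and 981 in sGC, a log2 fold change of 1.36 (SE 0.57; limma, adjusted p = 0.394). The animal at 42, Veh replicate SGM28, had the lowest sum of ependymal markers in F2 (5642). It was also lowest for the fibroblast and leptomeningeal (793), mural (3097) and astrocyte (96487) markers. Its neuron sum (75972) was the highest in F2, and its endothelial (8444) and microglial and leukocyte (2446) sums were not the lowest. Whether these sums bear on LAMA3 was not tested. Without SGM28 the LAMA3 log2 fold change was 0.73. Without Veh replicate SGM22, the animal at 857, it was 1.81. In F1 LAMA3 was highest in sGC replicates SGM12 (1153) and SGM16 (1058), against 392 to 730 in Veh.

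COL9A2 and COL5A3 followed COL18A1 among the F2 collagens. COL9A2 had 624 to 879 in Veh and 414 to 664 in sGC, a log2 fold change of -0.52 (SE 0.13; limma, adjusted p = 0.133). COL5A3 had 169 to 420 in Veh and 119 to 225 in sGC, a log2 fold change of -0.73 (SE 0.23; limma, adjusted p = 0.247). COL5A2, COL4A1 and COL4A2 had log2 fold changes of -0.43 (SE 0.24), -0.34 (SE 0.16) and -0.24 (SE 0.15). COL6A3 had 82 in Veh replicate SGM28 and 1552 in SGM22, wider than the sGC range of 441 to 870. COL27A1 and COL11A1, high in F1 sGC, had F2 log2 fold changes of -0.22 (SE 0.22) and -0.08 (SE 0.21).

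Of 20 integrins tested in F2, 16 were lower in sGC and 4 higher (20% higher, against 24.5% of all genes). At an unadjusted p-value under 0.05, 3 were lower, against 9.17% of all genes. With size factors 12 were lower and 8 higher. ITGA7 had 604 to 823 in Veh and 507 to 632 in sGC (log2 fold change -0.24, SE 0.10; limma, adjusted p = 0.394). ITGA8 had 97 to 234 in Veh and 94 to 135 in sGC, and ITGA5 204 to 512 in Veh and 169 to 263 in sGC, with log2 fold changes of -0.42 (SE 0.22) and -0.45 (SE 0.22). ITGAV and ITGB8 stood at -0.19 (SE 0.10) and -0.12 (SE 0.10). ITGB1 stood at -0.13 (SE 0.13) and ITGB5 at -0.15 (SE 0.08), ITGB4 at 0.12 (SE 0.18) and ITGAE at -0.14 (SE 0.10). ITGA6 at -0.02 and ITGB2 at 0.00 were within their standard errors, and ITGA6 turned to 0.05 with size factors. ITGAL, the alpha chain of the leukocyte receptor LFA-1, was named after its values were seen and stood at -0.56 (SE 0.23; limma, adjusted p = 0.388).

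Among 49 partner genes tested in F2, 39 were lower and 10 higher (20.4% higher, against 24.5% of all genes), and with size factors 28 were lower and 21 higher. On the deposited scale 0 passed the adjusted threshold with limma (7 at an unadjusted p-value under 0.05, against 11.7% of all genes). LIMS2 and FERMT2, adaptors at integrin tails, had the smallest p-values, with log2 fold changes of -0.27 (SE 0.09; limma, adjusted p = 0.278) and -0.23 (SE 0.08; limma, adjusted p = 0.287). Beside these values, all 14 endothelial and all 7 mural markers were lower in F2 sGC, with medians of -0.30 and -0.22. All 11 oligodendrocyte markers were lower, with a median of -0.78, and all 7 PVN markers higher, with a median of 0.32. All 7 ependymal markers were higher, 4 at an unadjusted p-value under 0.05, with the largest median of any list, 1.00, and sums of 5642 to 9388 in Veh and 7281 to 12798 in sGC. Their part in the results was not tested.

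**Figure D4:**
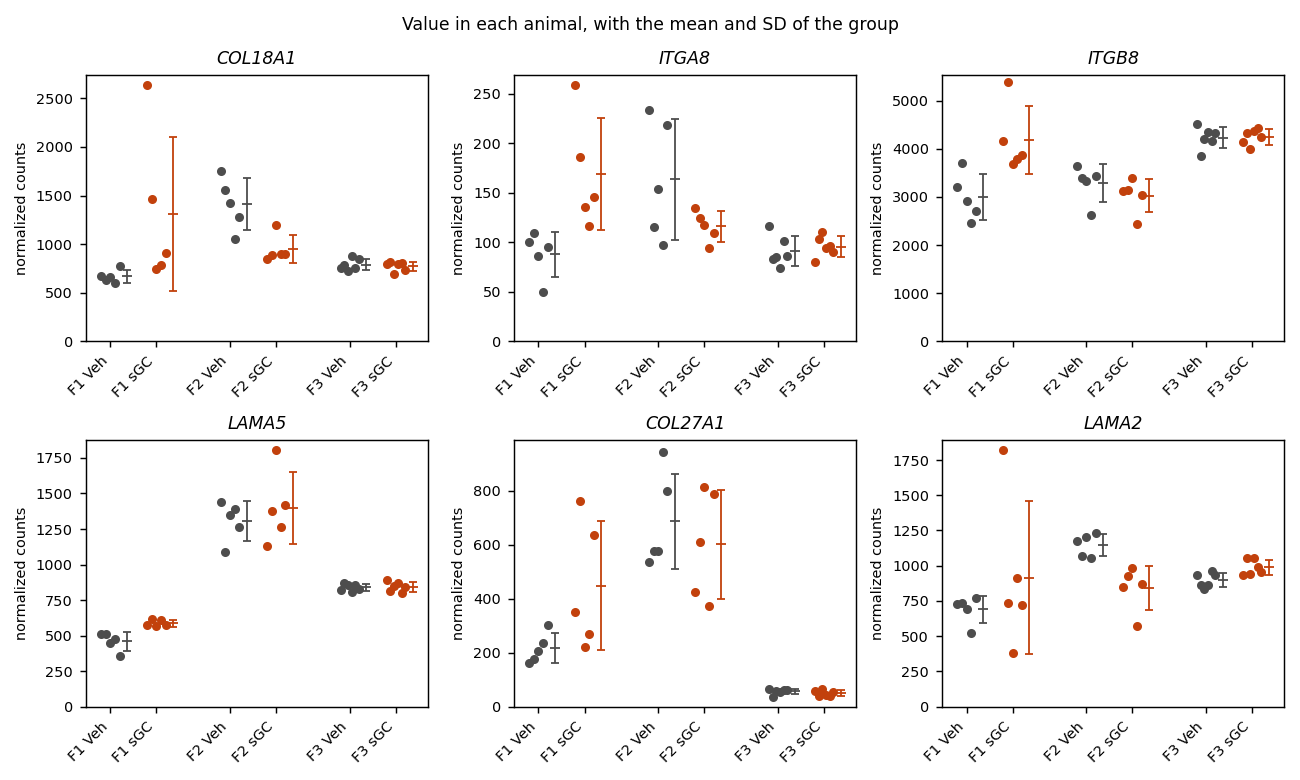
Normalized counts of 6 genes in every animal (points), with the mean and SD of each group beside them, Veh in grey and sGC in orange. COL18A1, ITGA8 and ITGB8 have higher F1 sGC means, LAMA5 separates the F1 groups with little spread in sGC, and LAMA2 separates the F2 groups. Levels are not comparable between generations, whose tables were normalized separately.

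The F1 and F2 effects were compared directly, since these groups share no animals. Of 52 genes tested in both, 33 (63.5%) were higher in F1 sGC and lower in F2 sGC, against 47.2% of all 11612 genes. With size factors the shares were 46.2% and 24%. The difference between the effects was tested for each gene by exact permutation of the treatment labels within each generation, two-sided, with 63504 permutations and adjustment over all genes tested in both. At an unadjusted p-value under 0.05, 15 of the 52 (28.8%) differed, against 14.7% of all genes. No gene of the families passed after adjustment (0 of 52), as 0.207% of all genes did.

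COL18A1 had the smallest p-value in this comparison, with a difference of 1.36 between its log2 fold changes of 0.80 in F1 and -0.57 in F2 (exact permutation p = 2.52e-04, adjusted p = 0.0597). The adjusted p ranged from 0.0332 to 0.183 over the alternatives tried. It passed without F1 sGC replicate SGM12, SGM16 or SGM20 and without F2 Veh replicate SGM28 or F2 sGC replicate SGM30, each left out alone. ITGA7 (adjusted p = 0.0457) and ITGA8 (adjusted p = 0.0499) also passed the exact permutation test without F2 Veh replicate SGM28. On all animals ITGA7 followed with a difference of 0.69 (exact permutation p = 4.72e-04, adjusted p = 0.0722), ITGAL with 1.01 (p = 0.00104, adjusted p = 0.0989) and ITGA8 with 1.34 (p = 0.00224, adjusted p = 0.127). ITGAL passed with size factors (difference 0.88, adjusted exact permutation p = 0.0416).

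**Figure D5:**
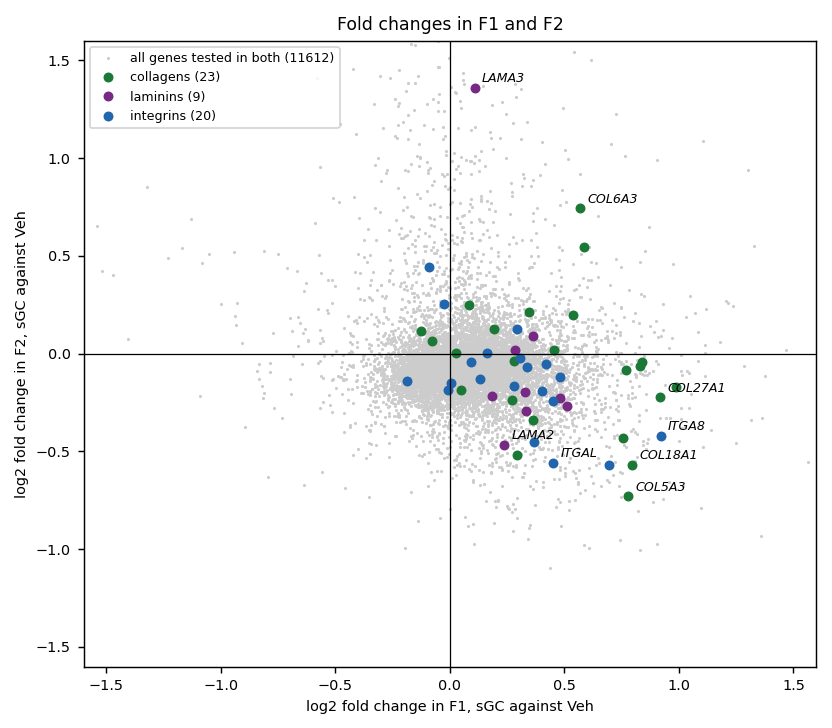
Log2 fold change in F2 against that in F1 for the genes tested in both, all genes in grey and the collagens, laminins and integrins in colour. The axes end at 1.6 in both directions, which leaves 19 genes outside. Most coloured points lie right of the vertical line, 33 of 52 in the lower right part, with COL18A1, COL5A3 and ITGA8 far into it.

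In F3, differences were small and the animals alike. The median SD within groups was 0.14 on the log2 scale for these genes, against 0.41 in F1 and 0.29 in F2. Over all genes it was 0.08, 0.21 and 0.16 in the same order, and the values show 2 directions removed by the authors' correction in F3 and 1 in each of F1 and F2. Of 67 tested, 46 (68.7%) were higher in sGC, against 49% of all 11866 genes, and the medians relative to all genes were 0.05 for 35 collagens, 0.09 for 10 laminins and 0.02 for 22 integrins. At an unadjusted p-value under 0.05, 5 were higher and 1 lower, against 6.19% and 6.92% of all genes (13.1% in all). None passed the adjusted threshold (0 of 67, limma, and 0 with size factors), which 0.0506% of all genes did on the deposited scale and 0.0421% with size factors (0.00843% higher and 0.0337% lower). The groups did not overlap in 0 of the 67, against 1.21% of all genes, 0.581% with sGC above and 0.632% with sGC below. Within the first sequencing batch, 45 of 67 were higher, 5 of them at an unadjusted limma p-value below 0.05. The shares of all genes above belong to the fit on all F3 animals, and those of the first-batch fit are not given here. Of the animals analysed, those from the second batch were all sGC. That batch also held 2 re-sequenced Veh libraries, which were not analysed here.

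LAMA2 had the smallest F3 p-value. It had 833, 861, 866, 934, 937 and 964 normalized counts in Veh and 932, 944, 957, 990, 1052 and 1054 in sGC. Every sGC animal was above the Veh mean of 899 ± 52.5 (SD, n = 6), and the mean in sGC was 988 ± 53.8 (SD, n = 6). The log2 fold change was 0.14 (SE 0.04; limma, adjusted p = 0.218). Its F2 effect minus its F3 effect was -0.60 (exact permutation test, 232848 permutations, p = 9.45e-05, adjusted p = 0.0631), and the adjusted p ranged from 0.0545 to 0.13 over the alternatives.

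Of 10 laminins 9 were higher in F3 sGC, against 49% of all genes. LAMB1 stood at 0.08 (SE 0.04) and LAMC1 at 0.10 (SE 0.05), with adjusted limma p-values of 0.383 and 0.418. LAMA4 stood at 0.04 (SE 0.04) and LAMA5 at 0.01 (SE 0.03), with smaller standard errors than in F1 (0.15 and 0.13).

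The fibroblast collagens had rows in F3. COL1A1, the main chain of collagen I, had 256 to 434 in Veh and 339 to 468 in sGC, a log2 fold change of 0.25 (SE 0.13; limma, adjusted p = 0.443). COL1A2 had 518 to 847 in Veh and 668 to 977 in sGC (0.20, SE 0.11; limma, adjusted p = 0.459). COL3A1 and COL5A1 stood at 0.09 (SE 0.06) and 0.11 (SE 0.07), COL6A2 at 0.09 (SE 0.07) and COL15A1, a vascular collagen related to COL18A1, at 0.11 (SE 0.12). In these 6 genes sGC replicate SGM18 held the highest value in COL1A2, COL3A1, COL5A1 and COL15A1. Of 11 fibroblast markers with a row, 6 were higher and 5 lower in sGC.

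COL9A1 had 87 to 101 in F3 Veh and 95 to 121 in sGC (log2 fold change 0.19, SE 0.07; limma, adjusted p = 0.266). COL4A6, a collagen IV chain with a row in F3 only, had 151 to 184 in Veh and 173 to 195 in sGC (0.14, SE 0.06; limma, adjusted p = 0.318). COL4A1 stood at -0.11 (SE 0.06), COL4A2 at -0.03 (SE 0.08) and COL18A1 at -0.03 (SE 0.05). COL27A1 stood at -0.17 (SE 0.16). COL5A2, COL5A3, COL9A2, COL11A1 and COL6A3 were within their standard errors, and COL6A3 turned from -0.01 to 0.14 in the first batch.

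Among the 22 F3 integrins, ITGA5 had 193 to 237 in Veh and 224 to 267 in sGC, with every sGC animal above the Veh mean (log2 fold change 0.17, SE 0.06; limma, adjusted p = 0.261). ITGA11, a fibroblast collagen receptor, had 10 to 22 in Veh and 8 to 18 in sGC (-0.45, SE 0.21; limma, adjusted p = 0.377). ITGAV stood at 0.12 (SE 0.06), ITGA7 at 0.18 (SE 0.09), ITGB4 at 0.14 (SE 0.07) and ITGA8 at 0.08 (SE 0.11). ITGB1 stood at -0.03 (SE 0.02). ITGA1, ITGA6, ITGAE, ITGB2, ITGB5 and ITGB8 were within their standard errors.

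The F1 effects were also set against F3. Higher in F1 sGC and lower in F3 sGC were 17 of 52 (32.7%), against 36.4% of all genes. Of 52 genes tested in both, 7 (13.5%) had an unadjusted exact permutation p-value under 0.05, against 15% of all genes. After adjustment 0 passed, as 0.485% of all genes did. With size factors ITGB8 (difference 0.41, adjusted exact permutation p = 0.0463) and ITGAE (difference -0.26, adjusted p = 0.0416) passed, 2 of 52 genes (3.85%) against 14% of all genes at that scaling. Higher in F2 sGC and lower in F3 sGC were 6 of 54 (11.1%), against 13.7% of all genes. Between F2 and F3, 11 of 54 (20.4%) had an unadjusted p-value under 0.05, against 13% of all genes, and 0 passed after adjustment, as 0.0859% of all genes did.

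Of 53 partner genes tested in F3, 27 were higher and 26 lower, and 0 passed the adjusted threshold with limma. At an unadjusted p-value under 0.05 there were 7, against 13.1% of all genes. DAG1, dystroglycan, the laminin receptor of astrocyte endfeet, had 8117 to 8454 in Veh and 8634 to 9120 in sGC. All its sGC animals lay above all Veh animals, which held for 0.581% of all genes. Its log2 fold change was 0.07 (SE 0.02; limma, adjusted p = 0.171). BMP1, which cleaves the C-terminal propeptide of procollagens, had a log2 fold change of 0.16 (SE 0.06; limma, adjusted p = 0.262).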

How the data were processed

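PVN micropunches of paternal-line females were sequenced (TruSeq, TopHat2 and edgeR in the submitters' notes). The authors counted reads on cavPor3 genes with GenomicAlignments, corrected F3 batches with ComBat, removed unwanted variation with RUVSeq residuals and deposited corrected counts rounded to whole numbers, treated here as a score and not as raw counts. The deposited tables also hold the authors' fold changes and p-values, which were not used. The study's own test (edgeR) called COL18A1 in both F1 and F2, where the limma test used here did not. Of 34 labelled libraries, 2 re-sequenced F3 Veh libraries were not analysed here.

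Values were tested as log2(value + 1) per table, without rescaling, for genes reaching a mean of 10 (R 4.3.3; limma 3.58.1, linear model with trended empirical Bayes; threshold 0.05). COL20A1 in F1 and COL17A1 in F2 fell under the mean. Group size and the sum per animal limit precision. The fits were checked on simulated data. No sequence is printed, since no sequence table was used here.

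Named genes were 28 set genes, members under the adjusted threshold with or without size factors (up to 8 per generation), the 5 members and 2 partners with the smallest p-values per generation, and partners under the threshold. A further 9 members were named after their values were seen. Members and lists were chosen with earlier results of these data known. Alternatives were scaling, filters, pseudocounts, covariates, batch and leaving out animals.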

Additional observations from a re-analysis of the deposited data

Results flagged for a closer look

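Of 188 groups of animals examined over the named genes, 10 had an animal apart from the rest on the log2 scale, and chance gives about 1 in 20, or 9.4. In F1 these were ITGA6 in Veh replicate SGM7 at 10.81 against 9.99 to 10.23 in the other Veh animals, LAMA2 in Veh replicate SGM15 at 9.04 against 9.44 to 9.59, and LAMA3 in Veh replicate SGM19 at 8.62 against 9.27 to 9.51. In F2 they were COL18A1 in sGC replicate SGM30 at 10.23 against 9.73 to 9.82, LAMA2 in sGC replicate SGM24 at 9.16 against 9.74 to 9.94, and ITGAL in the same animal at 4.09 against 4.86 to 5.17. ITGAE in F2 Veh replicate SGM23 stood at 8.71 against 8.89 to 8.94, and ITGB8 in F2 Veh replicate SGM28 at 11.36 against 11.70 to 11.83. In F3 they were COL27A1 in Veh replicate SGM14 at 5.25 against 5.78 to 6.09 and ITGB5 in sGC replicate SGM21-batch2 at 11.23 against 11.03 to 11.08. That last replicate came from the later of the F3 batches.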

How the results depend on the processing

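The number of genes of the families under the adjusted threshold in F1 was 0 on the deposited scale (all genes 0.657%). It was 6 of 53 with median-of-ratios size factors (all genes 17.3%), and 6 with quantile normalization or scaling to the sample total. It was 4 with size factors and the removed directions as covariates, 1 for a mean of at least 50 and 2 (COL6A3 and LAMA3) without SGM4, SGM8 and SGM20. Leaving out 1 animal gave 0 to 7, with 7 without sGC replicate SGM12 and 3 without sGC replicate SGM16 or Veh replicate SGM7. The adjusted shares of all genes in these F1 settings, beyond the deposited scale and size factors, are not given here. The same holds for F2 without Veh replicate SGM28, so these counts stand without a comparison. At an unadjusted p-value under 0.05 the F1 count of 22 was 12 to 22 in the planned settings that kept all animals, 6 without the 3 sGC animals and 14 to 31 with 1 animal left out (14 without SGM4 or Veh replicate SGM11, 31 without SGM12). In F2 the adjusted count was 0 to 1 (COL18A1 without Veh replicate SGM28) and the unadjusted count of 10 ranged from 6 to 18. In F3 the adjusted count was 0 in every setting and the unadjusted one 3 to 10. For F1 against F2, size factors gave 1 of 52 (all genes 0.568%). Leaving out 1 animal gave 0 to 3, with 3 without F2 Veh replicate SGM28 (all genes 0.568%). For F1 against F3, size factors gave 2 of 52 (all genes 14%) and sample totals 1 (all genes 13.8%).

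The F1 collagen median relative to all genes was 0.25 to 0.48 with 1 animal left out and -0.03 without the 3 sGC animals, the integrin median 0.16 to 0.35 and 0.05, and the laminin median 0.17 to 0.32 and 0.11. The F2 laminin median was -0.19 to -0.06, the last without Veh replicate SGM22. Directions turned in F1 for COL4A1 (-0.03), COL4A2 (-0.03), COL9A1 (-0.28), COL9A2 (-0.11) and LAMA2 (-0.21) without the 3 sGC animals, for COL9A1 (-0.06 to 0.41), LAMA2 (-0.06 to 0.50) and LAMA3 (-0.10 to 0.41) with 1 animal left out. In F2 ITGA6 turned to 0.05 (size factors, quantile normalization, size factors with covariates) or 0.06 (sample totals), and with 1 animal left out ITGA6 ranged from -0.08 to 0.07, COL9A1 from -0.02 to 0.31, COL11A1 from -0.25 to 0.06 and LAMA5 from -0.01 to 0.16. In F3 the batch fits turned COL6A3 to 0.14, COL11A1 to 0.03, ITGAE to -0.03 and ITGB8 to -0.01, as quantile normalization did for ITGB8. With 1 F3 animal left out, COL4A2 ranged from -0.10 to 0.02, COL5A2 from -0.04 to 0.05, COL5A3 from -0.04 to 0.11, COL6A3 from -0.09 to 0.06, COL11A1 from -0.06 to 0.02, ITGA1 from -0.04 to 0.03, ITGA6 from -0.02 to 0.06, ITGAE from -0.01 to 0.02, ITGB2 from -0.06 to 0.02, ITGB8 from -0.02 to 0.02 and LAMA5 from -0.01 to 0.02. In all, 21 of 94 gene and generation results turned in at least 1 setting. The causes were not tested. The column names number Veh and sGC animals alike, but no label ties a number to a litter or batch, and same-numbered animals did not all deviate together (correlations across genes from -0.24 to 0.31 in F1, -0.41 to 0.22 in F2 and -0.54 to 0.19 in F3). A replicate block on these numbers, added after seeing the data, gave 2 genes under the threshold in F1 (ITGA8 and ITGB8; 146 of all genes against 78 without the block), 0 in F2 and 0 in F3. A Veh animal correlated best with its own number in 1 of 5 cases in F1, 1 of 5 in F2 and 0 of 6 in F3.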

Other observations

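Veh levels of some of these genes differed widely between the 3 tables, which were normalized separately, so the values are set side by side with no test. Among 51 genes whose mean reached 10 in every table, the highest Veh mean was over 4 times the lowest in 9 (17.6%), against 2.81% of all 11407 genes, and over 10 times in 6 (11.8%), against 0.999%. Of these 6, all but COL27A1 were named after their values were seen. ITGA2B, the platelet fibrinogen receptor alpha chain, had Veh means of 29.6 in F1, 996 in F2 and 672 in F3. ITGB7, a beta chain of lymphocytes, had 1155, 90.2 and 1038. COL2A1, the main collagen of cartilage, had 171, 584 and 33.2, and COL27A1 216, 686 and 56.2. COL7A1, the anchoring fibril collagen, had 48.8, 135 and 11.2, and COL16A1 194, 637 and 62.5. The 4 collagens were highest in F2 and lowest in F3. ITGA2B and ITGB7 each stood apart in 1 table, ITGA2B low in F1 and ITGB7 low in F2. The tables give gene symbols only, so whether a symbol stood for the same gene model in each table was not tested.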
